A study of Brassica oleracea var. italica with 2 samples.

Results

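The genes described here are nuclear genes that an Arabidopsis array annotation knows by a locus code alone and whose signal was 2-fold or more lower in broccoli seedlings with an antisense construct than in seedlings with an empty vector. They were chosen by 3 conditions: a gene label made of a single code for chromosome 1 to 5, a signal above the floor on both arrays, and an antisense signal divided by the vector signal of 0.5 or less. As floor served the median of the 22746 probe sets that are no controls, which was 317.6 for the vector and 302.7 for the antisense array. A probe set is the group of short oligonucleotides that measures a transcript. Of 11933 probe sets with such a code, 4191 were above the floor on both arrays, 5624 were below it on both, 1080 were above it on the vector array alone and 1038 on the antisense array alone. The conditions left 118 probe sets for 117 loci, out of 13350 distinct gene labels on the array. Since the ratio itself chose them, their low ratios are a description and carry no test.

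Labelled RNA came from whole broccoli seedlings, cultivar Elegance, grown on plates for 11 days with 16 h of light a day. Both samples had a wild type background. The vector seedlings carried pCAMBIA1380 without an insert, and the antisense seedlings carried BoEMF2.1 in antisense orientation behind the 35S promoter, which is active in most plant tissues. With a single sample in each group (n = 1), no replicate error could be given and nothing was tested, and the precision of each ratio is limited by the number of arrays. How many plants or independent transformed lines were pooled is not given in the sources used here.

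EMF2 in Arabidopsis is a subunit of Polycomb repressive complex 2, which places a repressive methyl mark on histone H3 and keeps flower development genes silent in seedlings. Loss of such a complex is known above all for raising the transcripts of its target genes. A locus code gives the Arabidopsis chromosome after the letters AT and the order along it in its last digits. The annotation used here pairs these codes with no gene name or product, so no function is given for the members, and the function groups and promoter motifs that had been planned were not analysed. Because Arabidopsis probes read broccoli RNA, a probe set can report a broccoli relative of its locus, or several of them together, and a low signal can come from sequence differences.

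The arrays had the same trimmed mean signal, 500.04 on each. The 5 leaf markers with a probe set, out of 7 listed, summed to 38474.7 in vector and 28082.7 in antisense, and the 3 root markers, out of 5, summed to 2835.3 and 4097.2. Both lists went both ways: among leaf markers PSAN (-1.52), PORB (-0.96) and LHCB4.1 (-0.05) had negative log2 ratios and RCA (0.64) and PRK (0.14) positive ones, and among root markers EXPA7 (1.63) and EXPA18 (0.80) were positive and PYK10 (-0.44) negative. The shoot meristem marker CLV3, the single one of 3 with a probe set, missed both floors (83.8 and 64), and the listed flower markers had no named probe set. In a bulk sample, fewer cells of a type and less RNA per cell cannot be told apart, and the part of tissue makeup in the ratios below was not tested. The 18 hybridization controls, bacterial and phage transcripts, had a median log2 ratio of 0.19, with a range from -0.19 to 0.56. In 4 of 5 pairs of plant control probe sets the 5′ end had the higher ratio of the pair. The median gap was 0.44 over the 5, with a range from -0.34 to 0.62. These pairs cover actin, ubiquitin and GAPDH only, so some transcripts were measured by more than a single pair. The part of these controls in the members' ratios was not tested either.

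The 118 members made up 2.82% of the 4191 locus-named probe sets above both floors, while 120 probe sets, or 2.86%, were 2-fold or more higher. Over all 9382 probe sets above both floors the shares were 3.51% lower and 3.02% higher. Probe sets with the symbol of a nuclear gene stood at 3.68% lower (26 of 706) and 3.40% higher. Of the 75 organelle gene probe sets above both floors, 25 were 2-fold or more lower. Nothing is read from the members' share, as the same ratio chose them. When the hybridization controls set the scaling instead, the median of all measured probe sets moved from -0.02 to -0.22 and the locus-named counts became 223 lower and 58 higher. Centring on the median ratio gave 107 lower and 125 higher, quantile normalization 109 and 122, and loess on brightness 104 and 125.

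**Figure D1:**
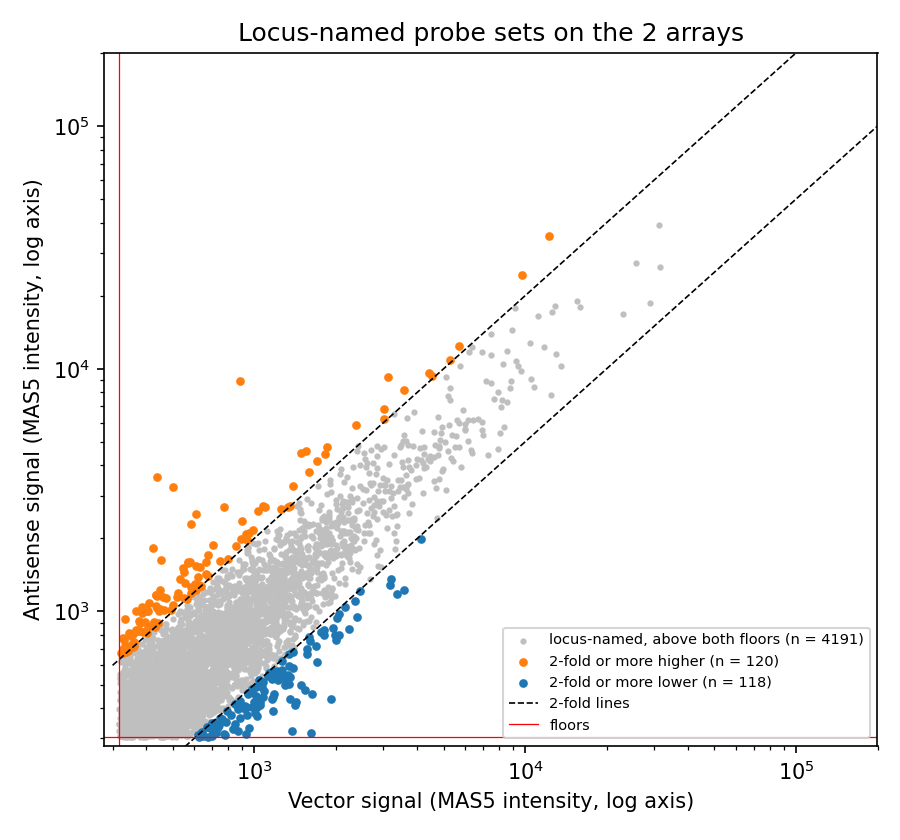
Antisense signal against vector signal (MAS5 intensity, log axes) for the 4191 locus-named probe sets above both floors, in blue the 118 at or past 2-fold lower, in orange the 120 at or past 2-fold higher; dashed lines mark 2-fold and red lines the floors. The lower ones end at a vector signal of 4125.7, while higher ones reach an antisense signal of 35295.4.

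The members were moderately bright. Vector signals ran from 620.3 to 4125.7 with a median of 1085.2, and antisense signals from 304.5 to 1988.2 with a median of 452.25. For all 4191 locus-named probe sets the medians were 660.5 and 639.1, and 113 of the 118 members exceeded the first on the vector array, whereas 26 exceeded the second on the antisense array. Part of this is set by the rule, as a probe set needed a vector signal of at least 605.4 to stay above the antisense floor at 2-fold. Of the 2358 locus-named probe sets with such a signal, 5.00% were members. The matching share for higher probe sets, which needed an antisense signal of 635.2 or more, was 5.67%.

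Most member ratios lay near the threshold. The median ratio was -1.17 on the log2 scale, or 2.25-fold lower, with an SD over members of 0.24. Over all locus-named probe sets the median was -0.03 and the SD 0.52. The rule cuts the members' ratios off at 2-fold, so their SD is not that of a group set apart. Under 2.2-fold stood 50 members, from 2.2-fold to under 2.5-fold 34, from 2.5-fold to under 3-fold 25, and at 3-fold or more 9. The 120 higher probe sets had a median of 1.19 with an SD of 0.36, and their widest ratio, 3.33 for AT2G43620, lay further from 0 than the members' widest, -2.37.

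AT2G30600 held the lowest ratios, and both of its probe sets were members. Its first probe set read 1625 in vector and 315.1 in antisense seedlings, 5.16-fold lower. The second read 1918.1 and 437.5, 4.38-fold lower. These readings differed by 0.23 on the log2 scale, and each placed the locus below every other member. AT5G51260, on chromosome 5, followed with 1384.2 and 322.9, 4.29-fold lower. Its antisense value, like the first one of AT2G30600, lay just above the floor, so its ratio could hardly have been lower under the rule.

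AT3G32270 read 1633.7 in vector and 458.7 in antisense seedlings, 3.56-fold lower. For AT1G16080 the signals were 1411.6 and 412.1, 3.43-fold lower. AT5G52820 was close to it, at 1424.2 and 422.4. These 3 loci lie on different chromosomes and had vector signals within 1411.6 and 1633.7. AT3G27770 read 1539.1 and 475.1, 3.24-fold lower, AT5G60460 read 1355.2 and 435.1, 3.11-fold lower, and AT5G40980 read 1173 and 390.9, the last at 3-fold.

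Just under 3-fold stood AT5G17670 (1493.8 and 498.2) and AT5G49680 (931 and 311.5). AT3G12260 was much brighter, at 3583.6 with the vector and 1222.6 with the antisense construct, 2.93-fold lower. AT5G51140 read 960.6 and 330.1, 2.91-fold lower. The bright AT1G63830 read 3358 and 1183.1, 2.84-fold lower, and AT5G04480 read 1710.5 and 617.1, 2.77-fold lower. AT3G12260 and AT1G63830 were the members that were among both the 15 lowest ratios and the 8 highest vector signals, and their antisense signals were well clear of the floor.

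**Figure D2:**
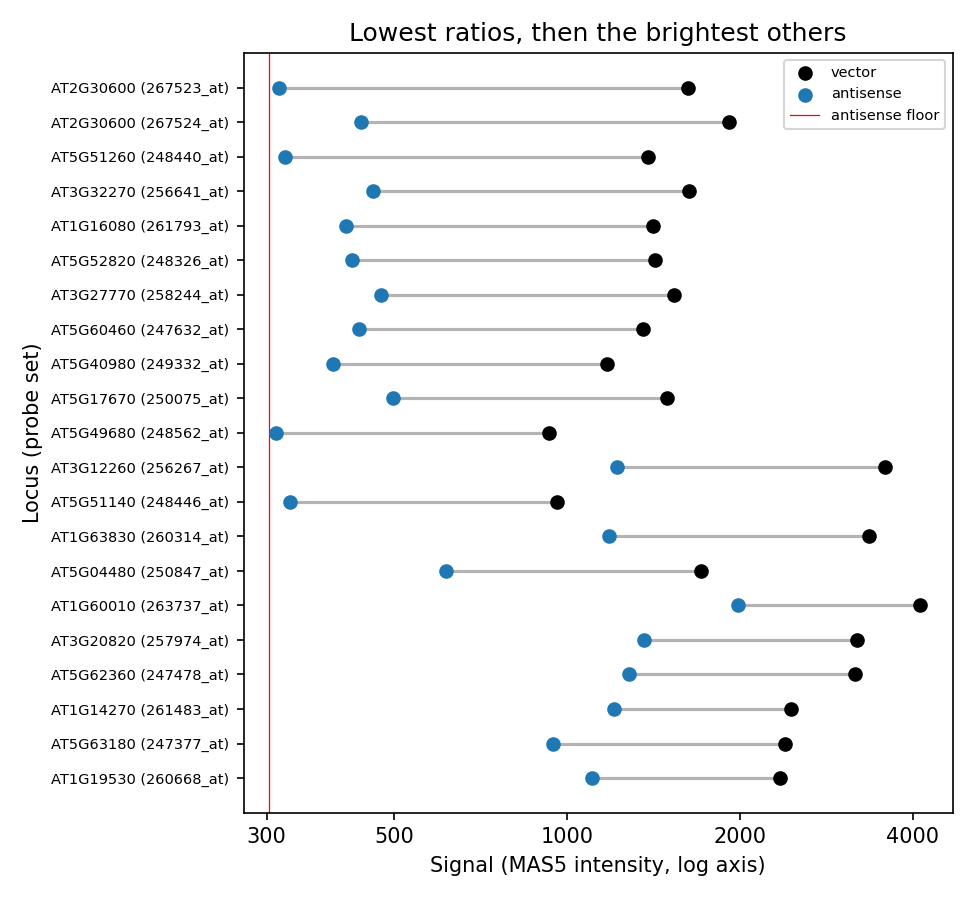
Vector (black) and antisense (blue) signals (MAS5 intensity, log axis) of the 15 member probe sets with the lowest ratios, in that order from the top, then of the other 6 among the 8 brightest members. The antisense points of the first probe set of AT2G30600 and of AT5G51260, AT5G49680 and AT5G51140 sit near the red line of the antisense floor at 302.7, and those of AT3G12260 and AT1G63830 lie above 1183.

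Of the brightest members, AT1G60010 had the highest signal on each array, 4125.7 and 1988.2, with a ratio of -1.05. AT3G20820 read 3204 and 1365 (-1.23), and AT5G62360 read 3169.6 and 1284.8 (-1.30). AT1G14270 read 2457.1 and 1209.4 (-1.02). Their ratios lay nearer the threshold than those of AT3G12260 and AT1G63830. AT5G63180 read 2397.8 and 947.6 (-1.34), and AT1G19530 read 2349.7 and 1104.6 (-1.09). In all, 14 members exceeded 2000 on the vector array, 57 lay between 1000 and 2000, and 47 were below 1000.

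Further members between 2.5-fold and 3-fold included AT3G02060 (1021.3 and 372.4), AT4G00520 (867.7 and 322.7), AT3G27050 (1342.9 and 502.5), AT5G13610 (1161.6 and 435.8) and AT2G16365 (1010.8 and 383.1). AT4G27640 and AT4G24610 had nearly the same ratio, -1.39, at 2228.9 and 848.8 and at 2003 and 762.8. Both were among the brighter members.

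In the values as deposited, the share of locus-named probe sets lower by 2-fold or more declined with brightness from a mean log2 signal of 10 upward. The middle step of this decline and the rise in the share of higher ones depended on the scaling. With a mean log2 signal under 10 the floor limits which probe sets can reach 2-fold (67 of the 1322 from 8 to 9 had the vector signal it takes), so shares are given from 10 upward, where 672 of 675 in the dimmest class had it. The classes left out, from 8 to 9 and from 9 to 10, held most of the members, 21 of 1322 (1.59%) and 73 of 1882 (3.88%). From 10 to 11, 3.11% were lower by 2-fold or more and 3.41% higher. From 11 to 12 they were 1.52% (3 of 197) and 4.57% (9 of 197). Above 12, 0 of 115 were lower and 10 of 115 (8.70%) were higher. With hybridization-control scaling the brightest class held 0 lower and 3 higher probe sets, and the class from 11 to 12 held 7 lower (3.55%) and 9 higher. The bright classes are small, and the difference was not tested.

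**Figure D3:**
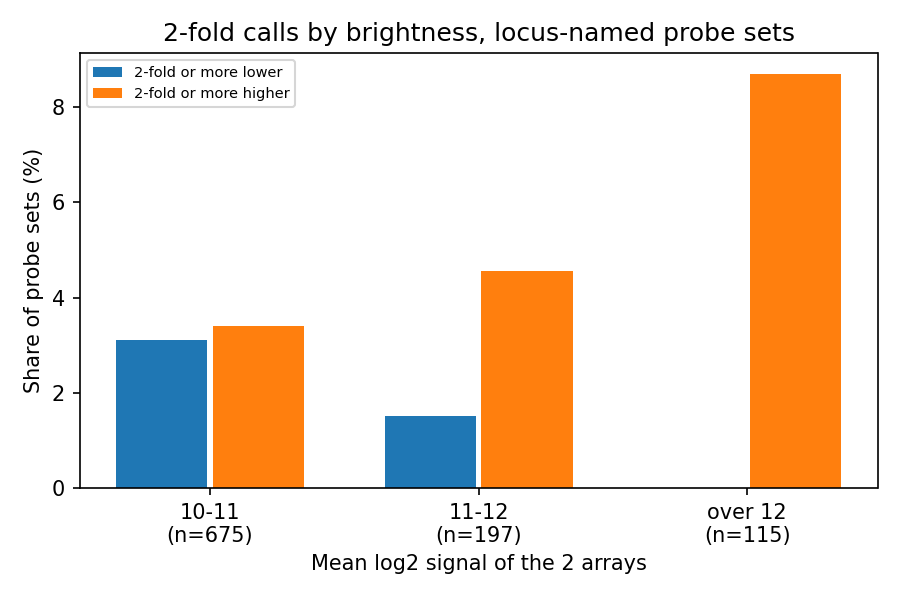
Share of locus-named probe sets above both floors (%) that were lower (blue) or higher (orange) in the antisense array by 2-fold or more, for classes of mean log2 signal of both arrays from 10 upward, with the number of probe sets under each class. Lower calls go from 3.11% to 0 of 115, and higher calls from 3.41% to 8.70%; under hybridization-control scaling the brightest class holds 3 higher calls.

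Many members were close to the floor in the antisense array. The antisense signal was under 1.5 times the floor in 59 of the 118 and under 1.1 times it in 21, and it was at least 2 times the floor in 28. The lowest were AT1G73110 (677.3 and 304.5), AT1G55530 (624.5 and 305) and AT3G45680 (644.5 and 305.5). Just outside, AT1G32120 (1413.5 and 301.6), AT5G02540 (781.3 and 301.1) and AT1G55240 (807.9 and 299.9) missed the floor on the antisense array alone. Of the 1080 locus-named probe sets above the floor on the vector array alone, 104 had a vector signal of at least 2 antisense floors and were left out by the floor, not by their ratio. AT1G32120 would have been second to the first probe set of AT2G30600 by its ratio of -2.23.

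At the ratio threshold, the nearest members were AT3G21170 (639.1 and 319.5), AT5G03120 (620.3 and 309.8), AT3G32930 (1043.5 and 519.9), AT1G65295 (1343.9 and 668.6) and AT1G30960 (672.1 and 334.3), with ratios from -1.01 to -1.0002. The nearest probe sets outside were AT1G21500 (845.2 and 422.7), AT1G61240 (1407.6 and 707.4), AT2G25510 (669.5 and 336.7), AT2G16940 (861.1 and 433.5) and AT2G37160 (1186.1 and 598.5), from -0.9997 to -0.99. These values do not set the 5 inside apart from the 5 outside.

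Other probe sets of the members' loci went through the same rule. One that was above both floors and 2-fold or more lower would itself be a member, as with AT2G30600. The rest were thus under 2-fold or missed a floor by construction, and they are no independent check. Besides AT2G30600, 4 member loci had another locus-named probe set. For AT5G49680 the other one read 662.9 with the vector and 511.7 with the antisense construct, a ratio of -0.37 where the member probe set stood at -1.58. That of AT4G00520 read 445 and 388.7 (-0.20 against -1.43). That of AT3G22290 read 674.5 and 519.7 (-0.38 against -1.13, from 819.9 and 373.6). All 3 were lower in the antisense array, and 0 of the 3 by 2-fold, which the rule fixed beforehand. That of AT4G00520 was too dim to show 2-fold, as its vector signal was 1.47 times the antisense floor, while those of AT5G49680 and AT3G22290 could have shown up to 2.19-fold and 2.23-fold. Under the 4 other scalings the lowest of the 3 ratios was -0.57. For AT2G20740, whose member probe set read 773 and 312.6, the other missed both floors (109.5 and 107.8). The other 112 member loci rest on a single locus-named probe set each.

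A comparison over every locus-named gene with 2 measured probe sets shows the size of such gaps. Of 4166 loci above both floors, 25 had 2 probe sets there, and the SD of a single log2 ratio from these pairs was 0.46, which covers differences between probe sets on the same RNA and not between plants. The median gap was 0.32 and the widest 1.97, for AT2G31110, where the probe sets stood at -0.96 and 1.01. In 9 pairs both ratios were negative, in 5 both were positive, and in 11 they had opposite signs. A 2-fold lower probe set occurred in 4 pairs, and in 1 of these, AT2G30600, its partner was 2-fold lower as well. A 2-fold higher probe set occurred in 2 pairs, with 0 partners past 2-fold. Which probe set of a pair reads the broccoli transcript better was not tested.

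**Figure D4:**
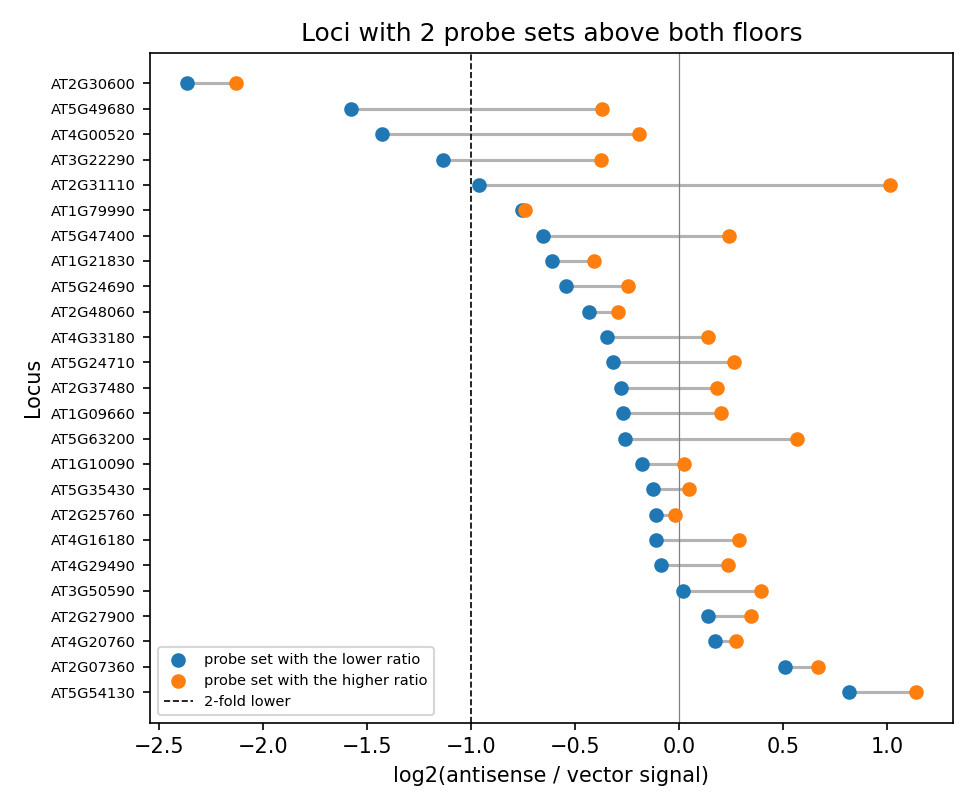
Log2 ratio of antisense over vector signal for both probe sets of the 25 locus-named genes with 2 probe sets above both floors, joined by a line, sorted by the lower ratio. AT2G30600 has both points left of the dashed line of 2-fold lower, while AT5G49680, AT4G00520 and AT3G22290 have their second point between -0.38 and -0.20.

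By position on the Arabidopsis chromosomes, which the rule did not use, members came from all 5. Chromosome 3 gave 32 members of 842 measured probe sets (3.80%) and chromosome 5 gave 34 of 1038 (3.28%). The shares were lower on chromosome 4 (15 of 596, 2.52%), chromosome 2 (14 of 622, 2.25%) and chromosome 1 (23 of 1093, 2.1%). Chromosome 3 also had the fewest higher calls by share, 15 of 842 (1.78%), against 2.89% to 3.69% on the others. With hybridization-control scaling it again had the highest share of lower calls, 6.29%, next to 6.17% on chromosome 5. Its median ratio over all measured probe sets, -0.02, was nevertheless like that of the others (-0.05 to -0.02). These shares were not tested, and Arabidopsis order need not be broccoli order.

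Some members were near each other in code order. Among members, 8 pairs of adjacent codes lay within 50 code units and 9 within 100, where consecutive genes usually differ by 10. AT5G62350 (1014.6 and 448.8) and AT5G62360 (3169.6 and 1284.8) are consecutive, with ratios of -1.18 and -1.30. AT5G40960 (1314.2 and 519.1) and AT5G40980 (1173 and 390.9) stood at -1.34 and -1.59. AT3G03960 (1696.5 and 717.8) and AT3G03980 (1986.3 and 797.2) stood at -1.24 and -1.32. The locus between the last pair, AT3G03970, was lower too, at 726.4 and 422.4 (-0.78), so that 3 consecutive codes had ratios of -0.78 or below.

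The remaining pairs were more mixed. AT4G22410 (934.8 and 404.3) and AT4G22450 (719.9 and 315.9) stood at -1.21 and -1.19, and AT4G18230 (726 and 330.7) and AT4G18280 (1016 and 490.3) at -1.13 and -1.05, with 0 measured loci between. AT1G30910 (983.8 and 404.7) and AT1G30960 stood at -1.28 and -1.01. Between AT3G61770 (1210.2 and 568.4) and AT3G61820 (1358.8 and 537.9), the measured AT3G61790 and AT3G61800 were not past 2-fold, at -0.13 and 0.36. AT4G37210 (1066 and 486.7) and AT4G37240 (638.4 and 316) enclosed AT4G37220 and AT4G37230, at -0.12 and -0.10. Between AT1G75720 (690.2 and 331) and AT1G75810 (871.4 and 417), AT1G75760 was higher, at 0.80, and AT1G75800 lower, at -0.63.

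Counted over all neighbours, 16 of 189 measured probe sets within 50 code units of a member were themselves lower by 2-fold or more (8.47%), and 4 (2.12%) were higher by that much. By the rule, every such lower neighbour is itself a member. The 16 are the members of the 8 pairs within 50 units given above, so this share restates those pairs and is no separate support. With hybridization-control scaling the share within 50 units of a lower locus was 7.12%, beside 5.32% over all locus-named probe sets, so the excess over the whole was smaller. The same 2 shares were 6.90% and 2.55% after centring, 6.59% and 2.60% after quantile normalization, and 6.74% and 2.48% after loess. In the values as deposited, the share within 20 units of a member was 6 of 87 (6.90%). Within 10 units it was 2 of 43 (4.65%) and within 100 units 18 of 364 (4.95%). Around the 120 higher probe sets, 3 of 193 within 50 units were lower (1.55%) and 4 were higher (2.07%), while within 100 units 7 of 378 were lower (1.85%) and 18 were higher (4.76%). Within 10 and 20 units 0 of 48 and 0 of 83 were higher, and 2 (4.17%) and 3 (3.61%) were lower. At 100 units, same-direction neighbours were thus about as frequent around higher probe sets (4.76%) as around members (4.95%). In the narrower windows they were not: within 10, 20 and 50 units the shares were 4.65%, 6.90% and 8.47% around members. Around higher probe sets they were 0, 0 and 2.07%. The counts are small, and nothing is read from them as particular to the members. The median ratio of the members' neighbours within 50 units was -0.05, near the -0.03 of all locus-named probe sets. Whether probe sets of neighbouring loci share sequence was not tested, and the counts were not tested against chance.

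**Figure D5:**
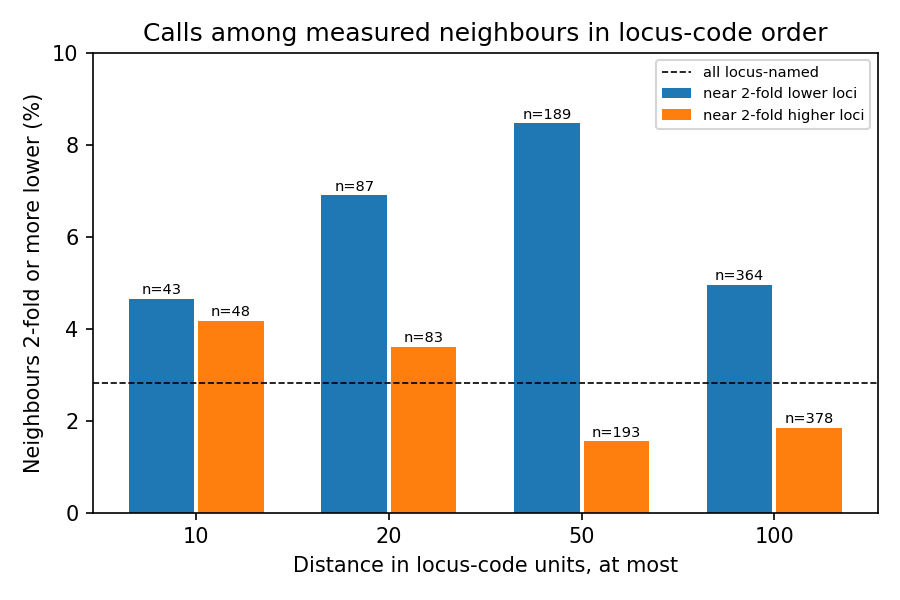
Share (%) of measured locus-named probe sets with an antisense signal lower by 2-fold or more, within 10, 20, 50 or 100 locus-code units of a 2-fold lower locus (blue) or a 2-fold higher locus (orange), with the number of neighbours above each bar. The dashed line is the 2.82% over all locus-named probe sets, and the blue bar is highest at 50 units, at 8.47%. By the rule, the lower neighbours counted here are themselves members.

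The rule took only probe sets with a single code, so the 503 with several genes were left out beforehand. Among those that remained, probe sets that the array design marks with the suffix _s_at, for sequences shared by several transcripts, were rare. There were 2 among the 118 members (1.69%) and 21 among the 4191 measured (0.501%). The members were AT4G22450 and AT1G42705 (786 and 350.8, a ratio of -1.16), for which the locus that gave the signal is uncertain.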

How the data were processed

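Per the submitters' processing notes, the authors made the values with MAS5, whose version is not given in the sources used here. The deposited table holds a linear-scale intensity for each probe set, from 10 µg of total RNA per the labels' protocols. Groups were taken from the source names. The antisense sample's genotype label names the 35S construct without the word antisense, and its source name was followed.

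Of 22810 probe sets, 64 are array controls, and the platform annotation assigns 13513 a single gene, 503 more than that, and leaves 8794 unnamed. Log2 ratios of antisense over vector signal were computed with no further scaling. The members and lists were chosen with earlier results of these data known. All members could be named; given in full were the 15 lowest ratios, the 8 highest vector signals and members with another probe set, plus neighbouring pairs and, as further examples chosen after their values were seen, members ranked just below. Neighbouring pairs and their windows were likewise set after the values were seen. Alternatives were scalings, floors, a pseudocount and thresholds. The procedure was tested on simulated data. Software was statsmodels 0.14.6 (loess), scipy 1.17.1, pandas 2.3.3, numpy 2.4.6 and matplotlib 3.10.9 under Python 3.11.15.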

Additional observations from a re-analysis of the deposited data

How the results depend on the processing

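No paired analysis was possible because the groups have a single sample each (n = 1), which also leaves none to omit. Function classes and promoter motifs were not run, as no gene descriptions or promoter sequences were used here. The counts of locus-named probe sets 2-fold or more lower and higher, 118 and 120, became 223 and 58 with hybridization-control scaling. They were 107 and 125 after centring, 109 and 122 after quantile normalization, and 104 and 125 after loess. A floor at the 25th percentile gave 664 and 560, a floor at the 75th 27 and 40, the absence of a floor 2093 and 1783, and a pseudocount at the 25th percentile together with no floor 1020 and 761. Thresholds of 1.5-fold and 3-fold gave 548 and 461, and 9 and 9. Floors and thresholds change these counts by construction. The higher share of calls, 50.4%, was 20.6% with hybridization-control scaling, 53.9% after centring, 52.8% after quantile normalization and 54.6% after loess. With the 118 members held fixed, 107 stayed 2-fold or more lower after centring, 105 after quantile normalization, 101 after loess, 118 with hybridization-control scaling and 72 with the pseudocount, and their median ratio ranged from -1.36 to -1.04. The median of the members' other probe sets, -0.37, was -0.28 with the dim one included. Added after seeing the data, the shares by brightness, chromosome and code distance were recomputed under each scaling. Within 50 code units of a lower locus, 6.59% to 7.12% of neighbours were lower under the 4 other scalings, against 8.47%. The shares over all locus-named probe sets were 2.48% to 5.32% under these scalings, the highest with hybridization-control scaling, against 2.82%.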
